A study of Homo sapiens with 2 samples.

Results

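This report describes 28 genes of cholesterol and fatty acid synthesis, chosen by symbol among the 58302 genes of an RNA-seq table, and all 28 were found. By role they fall into 18 genes of sterol synthesis, 6 genes of SREBP control and sterol transport, and 4 genes of fatty acid synthesis. The series holds 2 libraries of total RNA from HL60-EIF2S3 cells, 1 per condition. HL60 is an established human acute myeloid leukemia line. The cells of both conditions carry an EIF2S3 transgene in a Retro-X Tet-Off Advanced system, which is on in the cells labelled DOX(-), left untreated, and is shut off by doxycycline in the cells labelled DOX(+). Whether the stable line is a clone or a pool, the promoter of the transgene, and the dose and time of doxycycline are not given in the sources used here. Cells without the transgene, with or without doxycycline, were not analysed here, so that the transgene and doxycycline itself cannot be told apart.

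Cells make cholesterol from acetyl-CoA. The mevalonate steps join acetyl-CoA units into isoprenoids, squalene synthase joins a pair of these into squalene, and the later enzymes close the rings and trim lanosterol to cholesterol. Fatty acid synthesis draws on the same acetyl-CoA pool. Both branches are switched on by the SREBP transcription factors, which stay in the endoplasmic reticulum, held there with their escort SCAP by the INSIG proteins, while sterols are plentiful. When sterols run low, SCAP carries the SREBPs to the Golgi, where proteases free the active part.

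Levels are given as FPKM, fragments per kilobase of transcript, scaled to the library total, the value the authors deposited for each gene and library. A log2 ratio is that of FPKM + 1 in the library labelled DOX(-) over the library labelled DOX(+), taken for genes of 1 FPKM or more in either library, and a plain ratio is that of the FPKM values alone. With 1 library per condition there is no replicate check and no test. A difference was counted from 1.5-fold on the scale of FPKM + 1, and a 95% counting interval of the plain ratio (exact, Clopper-Pearson) shows how far the number of fragments limits each value. Fragments were estimated on the shortest annotated transcript of a gene, which gives the widest interval, and on the longest.

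Library totals read from the steps of the FPKM values were 16577643 fragments for DOX(-), against 18521267 fragments for DOX(+). EIF2S3, whose transgene the labels turn on in DOX(-), stood at 133 FPKM in DOX(-), against 126 FPKM in DOX(+), a plain ratio of 1.05 (counting interval 0.927 to 1.20 on the shortest transcript and 1.02 to 1.09 on the longest). These values do not show a clearly higher level in DOX(-), so the conditions are called by their library labels. Of 6 promyelocyte markers, 5 reached 1 FPKM and their sum was 1348 FPKM in DOX(-), against 1075 FPKM in DOX(+), with CTSG and ELANE the most abundant. CTSG, ELANE, PRTN3 and AZU1 were higher in DOX(-), with log2 ratios of 0.27 to 0.53, and CD33 was at 8.87 FPKM in DOX(-), against 8.89 FPKM in DOX(+). MPO, the myeloperoxidase gene that defines this stage, was at 0.274 FPKM in DOX(-), against 0.469 FPKM in DOX(+), so this marker was nearly absent from the values. Of 5 mature myeloid markers, 2 reached 1 FPKM. These were CXCR2, at 4.49 FPKM in DOX(-), against 5.00 FPKM in DOX(+), and CSF3R, at 3.28 FPKM in DOX(-), against 2.75 FPKM in DOX(+). Of 9 markers of erythroid, lymphoid, epithelial and stromal cells, only PECAM1, which myeloid cells also express, reached 1 FPKM. HBB, CD3E, MS4A1, EPCAM and KRT18 were listed at 0 in both libraries. The mitochondrial genome held 22.5% of the summed FPKM in DOX(-), against 27.7% in DOX(+).

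CCAAT and Sp1 boxes, defined below, were in most of the promoter windows found for these genes, and the choice of members did not use them. RefSeq promoter windows (GRCh38.p14, 250 bases before to 50 after a start) were found for 24 of the 28 members, with 33 windows in all. FASN, SQLE, ACAT2 and FDFT1 had none. The CCAAT box (CCAAT on either strand, the site of NF-Y, a factor known to work beside the SREBPs) was present in 23 of 33 member windows, against 34.6% of all 35116 windows and 35.2% of the windows of genes at 1 FPKM or more. The Sp1 box (GGGCGG on either strand) was in 30 of 33 windows, against 45.0% of all windows and 68.0% of those of genes at 1 FPKM or more. The E-box CACGTG, which reads the same on both strands, was in 5 of 33 windows, against 7.26% of all windows and 10.2% of those of genes at 1 FPKM or more. The core of the sterol regulatory element (TCACNCCAC on either strand) was found in 1 window, that of SREBF2, against 1.13% of all windows and 1.04% of those of genes at 1 FPKM or more. The other member windows do not hold these letters, and shorter or degenerate forms were not searched. Matches that overlapped one another were all counted. Windows of 1 gene can overlap, so that 1 site can count in more than 1 window. By gene, the CCAAT box was in 19 of 24 members with a window, against 39.7% of all genes. CYP51A1, INSIG2, PMVK, SCAP and SREBF1 held none. The Sp1 box was in 23 of 24, against 48.3%, the E-box in 4 of 24, against 8.77%, and the sterol element in 1 of 24, against 1.39%. These shares by gene are over all genes, expressed or not, and were not computed for genes at 1 FPKM or more. By window, as given above, the Sp1 box and the E-box were more frequent in genes at 1 FPKM or more.

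The stretches below lie before the RefSeq start and outside every GENCODE exon of the gene, and are shown because they carry these boxes in genes whose levels lay apart or together in the 2 libraries. Each is written 5′ to 3′ in the direction of transcription, with CCAAT boxes (ATTGG where they lie on the other strand) and the sterol element in capitals. A stretch is a part of its window, which can hold more boxes than are shown. The SREBF2 stretch is chr22:41832962-41833013 on the plus strand and holds the sterol element in front of a CCAAT box. The SCD stretch is chr10:100346994-100347061 (plus), that of ACLY chr17:41919031-41919097 (minus), that of INSIG1 chr7:155297698-155297722 (plus), that of FDPS chr1:155308680-155308704 (plus), that of MVD chr16:88663162-88663260 (minus), that of MSMO1 chr4:165327474-165327607 (plus) and that of IDI1 chr10:1049222-1049344 (minus).
SREBF2: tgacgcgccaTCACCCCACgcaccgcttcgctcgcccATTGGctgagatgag
SCD: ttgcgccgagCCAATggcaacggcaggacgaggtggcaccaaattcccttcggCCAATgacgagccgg
ACLY: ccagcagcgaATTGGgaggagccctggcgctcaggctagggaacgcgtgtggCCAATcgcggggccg
INSIG1: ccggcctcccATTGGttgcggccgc
FDPS: cagcccttccATTGGtcgtccgtca
MVD: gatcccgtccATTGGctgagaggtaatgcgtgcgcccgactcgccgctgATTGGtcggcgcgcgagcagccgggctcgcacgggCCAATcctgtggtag
MSMO1: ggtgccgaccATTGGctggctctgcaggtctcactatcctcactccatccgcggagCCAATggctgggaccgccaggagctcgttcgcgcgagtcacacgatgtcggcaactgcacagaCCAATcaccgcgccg
IDI1: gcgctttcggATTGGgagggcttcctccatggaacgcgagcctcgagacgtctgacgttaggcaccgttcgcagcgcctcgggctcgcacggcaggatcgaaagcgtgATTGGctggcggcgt

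Across the members, most levels were slightly higher in the library labelled DOX(-), and the 4 fatty acid genes had the largest median difference of the 3 groups. Of the 28 members, 26 reached 1 FPKM in a library. Of these, 20 had a log2 ratio above 0, where 46.6% of all 11525 tested genes did. The median log2 ratio was 0.34 over the 4 fatty acid genes, 0.12 over the 6 genes of SREBP control and sterol transport, 0.07 over the 16 tested sterol genes, and 0.16 over all 26, against -0.02 over all tested genes. At the 1.5-fold rule 1 of 26 members was higher in DOX(-), FASN, and 0 were lower, where 7.17% of all tested genes differed in either direction, 3.11% higher and 4.06% lower. A share of 1 in 26 is near that background and is no result about the members. In bulk RNA, fewer cells with a transcript and less of it per cell cannot be told apart.

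These differences are small enough that the scaling between the libraries matters. Under trimmed-mean and median-of-ratios scaling 21 of 26 members lay above 0. When the libraries were set to equal sums without mitochondrial genes, 16 of 26 members lay above 0. The median over the members was then 0.10 where that over all tested genes was -0.08, and FASN no longer passed 1.5-fold. The share of all tested genes above 0 was not computed under these scalings. FASN also lay under 1.5-fold at a pseudocount of 5 FPKM. Of the 26, 19 lay within 0.32 of 0 on the log2 scale, where 77.1% of all tested genes did, and 10 within 0.1, where 31.3% did. Above 0.2 lay 12 members, where 18.9% of all tested genes did, and below -0.2 lay 0, where 24.4% did. The counting interval lay above equal levels for 6 members on the shortest transcript and for 13 on the longest. It lay below equal levels for 0 members on either. Over all tested genes with a length, it lay above equal levels for 7.6% on the shortest transcript and 18.1% on the longest, and below for 8.52% on the shortest and 23.4% on the longest. These shares are over genes of all levels, and an abundant gene has a narrower interval.

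**Figure D1:**
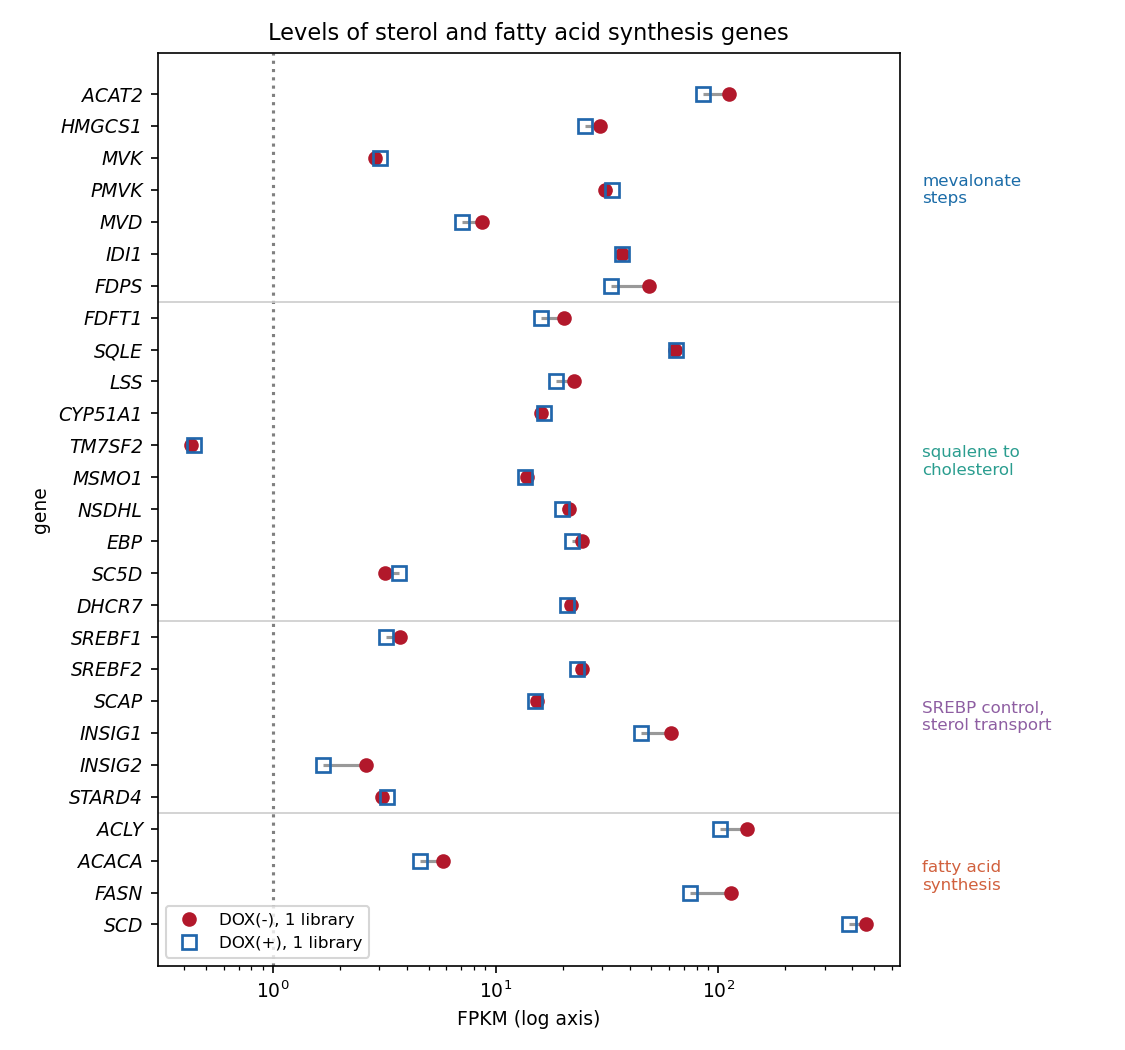
FPKM on a log axis for 27 members, ordered by role, with 1 filled circle for the DOX(-) library and 1 open square for the DOX(+) library, and a dotted line at 1 FPKM. The levels run from TM7SF2, near 0.4 FPKM, to SCD, at 462 FPKM in DOX(-), against 387 FPKM in DOX(+), and the symbols of most genes nearly coincide. HSD17B7, listed at 0 in both libraries, is not drawn.

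In fatty acid synthesis all 4 genes were higher in the library labelled DOX(-), by log2 ratios of 0.25 to 0.60. FASN encodes fatty acid synthase, the enzyme that builds palmitate (ENSG00000169710, chromosome 17, 82078333 to 82098332, GRCh38). It stood at 114 FPKM in DOX(-), against 74.4 FPKM in DOX(+), a log2 ratio of 0.60 and a plain ratio of 1.53. The counting interval was 1.22 to 1.91 on its shortest transcript, of 100 bases, and 1.49 to 1.56 on its longest, of 8565 bases. ACLY encodes ATP citrate lyase, which makes cytosolic acetyl-CoA from citrate (chromosome 17, 41866908 to 41930542). Its level was 135 FPKM in DOX(-), against 102 FPKM in DOX(+), a plain ratio of 1.32 (counting interval 1.21 to 1.44).

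ACACA encodes acetyl-CoA carboxylase, which makes malonyl-CoA, the building block of the synthase. It was the lowest of the 4, at 5.81 FPKM in DOX(-), against 4.59 FPKM in DOX(+) (log2 ratio 0.29). Its counting interval was 0.748 to 2.17 on the shortest transcript, which includes equal levels, and 1.15 to 1.39 on the longest. SCD encodes the desaturase that turns stearate into oleate (chromosome 10, 100347124 to 100364834), and it was the most abundant member in both libraries. SCD stood at 462 FPKM in DOX(-), against 387 FPKM in DOX(+), with a log2 ratio of 0.25. It has 1 annotated transcript and about 41031 fragments in DOX(-) and 38414 in DOX(+), so its counting interval of 1.18 to 1.21 was the narrowest of the members. SCD alone made up 35.4% of the summed FPKM of the 28 members in DOX(-), against 35.8% in DOX(+). The 4 fatty acid genes made up 54.9% in DOX(-), against 52.6% in DOX(+). Of the 6 promyelocyte markers, 4 were also higher in DOX(-), as given above, and their part in these differences was not tested.

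Of the 6 genes of SREBP control and sterol transport 0 passed 1.5-fold, and the INSIG genes had the highest ratios. INSIG1, of a retention protein (chromosome 7, 155297776 to 155310235), stood at 61.6 FPKM in DOX(-), against 45.2 FPKM in DOX(+). The log2 ratio was 0.44, and the plain ratio of 1.36 had a counting interval of 1.21 to 1.54. INSIG2, the related retention protein, was much lower, at 2.62 FPKM in DOX(-), against 1.67 FPKM in DOX(+). Its plain ratio of 1.57 was the highest of the members, yet its log2 ratio of FPKM + 1 was 0.44, under the 1.5-fold rule. The counting interval of INSIG2 ran from 0.771 to 3.13 on the shortest transcript, where it rests on 22 fragments in DOX(-) and 16 in DOX(+), and from 1.19 to 2.04 on the longest. INSIG1 exceeded INSIG2 by 23.5-fold in DOX(-) and 27.0-fold in DOX(+).

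SREBF2, whose product favours the cholesterol genes, was at 24.5 FPKM in DOX(-), against 23.2 FPKM in DOX(+) (log2 ratio 0.08). SREBF1, whose products favour fatty acid genes, was at 3.72 FPKM in DOX(-), against 3.22 FPKM in DOX(+) (0.16). SREBF2 thus exceeded SREBF1 by 6.60-fold in DOX(-) and 7.21-fold in DOX(+), on a scale that divides by transcript length. SCAP, the escort and sterol sensor, was at 15.4 FPKM in DOX(-), against 15.0 FPKM in DOX(+) (0.03). STARD4, which carries cholesterol between membranes, was at 3.09 FPKM in DOX(-), against 3.24 FPKM in DOX(+) (-0.05). The counting intervals of all 4 included equal levels on either transcript, and the sign of SCAP turned under the scaling without mitochondrial genes. For SREBF1, RAI1 overlaps an exon on the other strand, and it was at 1.89 FPKM in DOX(-), against 2.89 FPKM in DOX(+).

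Of the 7 mevalonate genes 0 passed 1.5-fold, and genes with ratios above equal levels stood beside genes at or below them. FDPS encodes farnesyl diphosphate synthase, which makes the last isoprenoid that sterol and prenylation pathways share (chromosome 1, 155308748 to 155320666). It stood at 48.7 FPKM in DOX(-), against 33.1 FPKM in DOX(+), a log2 ratio of 0.54 and a plain ratio of 1.47 (counting interval 1.26 to 1.72). ACAT2 encodes the cytosolic thiolase of the opening step and was the most abundant sterol gene, at 111 FPKM in DOX(-), against 85.4 FPKM in DOX(+). Its log2 ratio was 0.38 and its counting interval 1.21 to 1.40. The exons of ACAT2 overlap on the other strand with TCP1, a chaperonin subunit gene at 57.2 FPKM in DOX(-), against 59.2 FPKM in DOX(+). Whether the counting used strand is not given in the sources used here, so reads of these partners may not be told apart.

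The next gene in order of difference was MVD, of the decarboxylase that makes isopentenyl diphosphate, at 8.65 FPKM in DOX(-), against 7.04 FPKM in DOX(+) (log2 ratio 0.26). HMGCS1, of the synthase that makes HMG-CoA, was at 29.4 FPKM in DOX(-), against 25.3 FPKM in DOX(+) (0.21). The intervals of both included equal levels on the shortest transcript and lay above them on the longest, at 1.05 to 1.44 for MVD and 1.08 to 1.24 for HMGCS1. IDI1, of the isomerase that makes the allylic isoprenoid unit, was at 37.0 FPKM in DOX(-), against 36.9 FPKM in DOX(+), a log2 ratio of 0.00 that turned negative under the scaling without mitochondrial genes. The kinase genes lay slightly below equal levels. MVK, of mevalonate kinase, was the lowest mevalonate gene, at 2.87 FPKM in DOX(-), against 3.03 FPKM in DOX(+) (-0.06), and PMVK, of the kinase that follows it, was at 31.0 FPKM in DOX(-), against 33.3 FPKM in DOX(+) (-0.10). Their counting intervals included equal levels on either transcript.

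From squalene to cholesterol, the 9 tested genes had a median log2 ratio of 0.05 and none passed 1.5-fold. FDFT1 encodes squalene synthase, the committed step to sterols, and had the largest ratio, with 20.2 FPKM in DOX(-), against 15.97 FPKM in DOX(+) (log2 ratio 0.32). LSS, of lanosterol synthase, which closes the rings, was at 22.5 FPKM in DOX(-), against 18.7 FPKM in DOX(+) (0.25). EBP, of the isomerase that shifts a ring double bond, was at 24.5 FPKM in DOX(-), against 21.9 FPKM in DOX(+) (0.16). For these 3 genes the interval lay above equal levels only on the longest transcript, at 1.15 to 1.39, 1.13 to 1.29 and 1.01 to 1.24.

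SQLE encodes squalene epoxidase, a rate-limiting oxygenase, and lies between them in the pathway. It was the most abundant gene of this stretch, at 64.1 FPKM in DOX(-), against 64.7 FPKM in DOX(+), a log2 ratio of -0.01 whose sign turned under trimmed-mean and median-of-ratios scaling. The counting interval of SQLE, 0.885 to 1.11 on the shortest transcript and 0.944 to 1.04 on the longest, lies wholly below the plain ratio of FDPS. CYP51A1, of the enzyme that removes the 14-methyl group of lanosterol, was at 15.99 FPKM in DOX(-), against 16.5 FPKM in DOX(+) (-0.04). MSMO1 and NSDHL act in turn to remove the 4-methyl groups. MSMO1 was at 13.8 FPKM in DOX(-), against 13.6 FPKM in DOX(+) (0.02), and NSDHL at 21.3 FPKM in DOX(-), against 19.9 FPKM in DOX(+) (0.10). DHCR7, of the reductase that makes cholesterol from 7-dehydrocholesterol, was at 21.7 FPKM in DOX(-), against 21.0 FPKM in DOX(+) (0.05). SC5D, of the desaturase ahead of it, was at 3.19 FPKM in DOX(-), against 3.68 FPKM in DOX(+) (-0.16), the lowest ratio of the members. The intervals of these 6 genes included equal levels on either transcript, and the signs of MSMO1 and DHCR7 turned under the scaling without mitochondrial genes.

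The remaining pair of members did not reach 1 FPKM. TM7SF2, a sterol C14-reductase gene, was at 0.429 FPKM in DOX(-), against 0.443 FPKM in DOX(+), and it shares an exon on the same strand with VPS51 (6.21 FPKM in DOX(-), against 4.61 FPKM in DOX(+)). LBR, whose product catalyses the same reduction, was at 36.8 FPKM in DOX(-), against 49.7 FPKM in DOX(+). It was thus lower in DOX(-), with a log2 ratio of -0.43 and a counting interval of 0.630 to 0.868. LBR lay 85.6-fold above TM7SF2 in DOX(-) and 112-fold in DOX(+). These folds are rough, because TM7SF2 rests on 3 fragments in each library on its shortest transcript. On its longest it rests on 15 in DOX(-) and 17 in DOX(+). HSD17B7, of the 3-ketosteroid reductase, was listed at 0 in both libraries, as were its pseudogenes HSD17B7P1 and HSD17B7P2, and a listed 0 can be a failed estimate.

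Named pseudogenes of 4 members stand in the table, 14 in all, of which 10 were above 0 in a library, and fragments could be divided between a gene and its copies. For FDPS, the highest of 8 copies was FDPSP2, at 0.404 FPKM in DOX(-), against 0.301 FPKM in DOX(+), far below the gene. CYP51A1P2 was at 4.27 FPKM in DOX(-), against 4.93 FPKM in DOX(+), a sizeable level beside the gene, so the value of CYP51A1 is uncertain. SCDP1 was at 2.23 FPKM in DOX(-), against 1.70 FPKM in DOX(+), little beside SCD. In 12 members an exon overlaps a gene on the other strand, and apart from TCP1, RAI1, MMAB (beside MVK, 5.48 FPKM in DOX(-), against 5.77 FPKM in DOX(+)) and AC125257.2 (beside ACLY, 3.87 FPKM in DOX(-), against 2.08 FPKM in DOX(+)) these partners lay below 1 FPKM in both libraries.

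**Figure D2:**
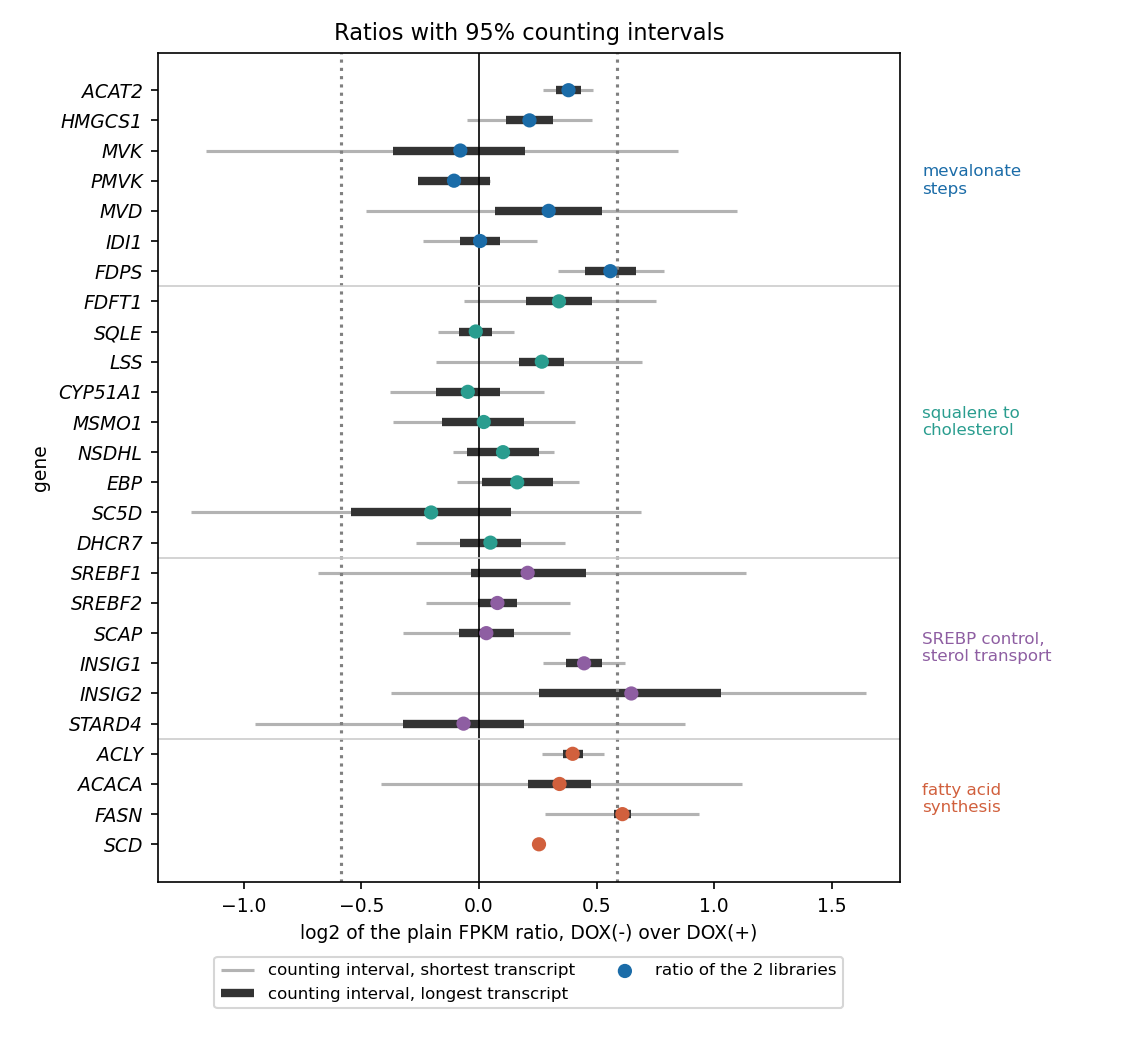
The log2 of the plain FPKM ratio, DOX(-) over DOX(+), for the 26 members of 1 FPKM or more, with 95% counting intervals on the shortest annotated transcript (grey) and the longest (black), a solid line at equal levels and dotted lines at 1.5-fold. FASN, FDPS, INSIG1, ACLY, ACAT2 and SCD lie right of equal levels with both intervals, and IDI1, SQLE, MSMO1 and SCAP sit on the line. The intervals cover counting error only.

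The order of the levels was almost the same in the libraries. SCD and ACLY held ranks 1 and 2 in both, FASN was at rank 3 in DOX(-), against rank 4 in DOX(+), and ACAT2 at rank 4 in DOX(-), against rank 3 in DOX(+). FDPS stood at rank 7 in DOX(-), against rank 9 in DOX(+), where IDI1 and PMVK were above it. MVK, INSIG2, TM7SF2 and HSD17B7 closed the order in both libraries.

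Other genes of lipid metabolism stood in 10 lists written from textbook knowledge. The list medians of the log2 ratio ran from -0.06 for fatty acid oxidation to 0.12 for acetyl-CoA and NADPH supply. Mitochondrial fatty acid synthesis also had a median of 0.12, and LXR and sterol efflux had 0.10. The upper list medians were thus close to the 0.12 of SREBP control and sterol transport. Of the 145 genes found, 123 reached 1 FPKM in a library. Of these, 64 (52.0%) lay above 0, where 46.6% of all tested genes did. At the 1.5-fold rule 2 were higher in DOX(-) and 4 lower, where 3.11% of all tested genes were higher and 4.06% lower. These counts are near that background and are no result about the lists. The counts in single lists below rest on few genes each. The median log2 ratio over the 123 genes was 0.01. The list of further sterol genes that holds LBR had a median of -0.02 over 4 genes. Of 14 isoprenoid branch genes 0 passed 1.5-fold (median -0.05). The prenyltransferase subunit genes PGGT1B (1.90 FPKM in DOX(-), against 2.70 FPKM in DOX(+)) and FNTB (2.79 FPKM in DOX(-), against 3.81 FPKM in DOX(+)) lay furthest from 0. Their intervals included equal levels on the shortest transcript. On the longest they lay below equal levels, at 0.607 to 0.814 for PGGT1B and 0.583 to 0.917 for FNTB. The exons of FNTB overlap CHURC1-FNTB on the same strand.

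Of 21 tested genes of SREBP processing and sterol-regulated degradation 0 passed 1.5-fold (median -0.02). Among those of 2 FPKM or more in a library, the furthest from 0 were SAR1B, a coat GTPase gene of transport from the endoplasmic reticulum (2.095 FPKM in DOX(-), against 3.18 FPKM in DOX(+)), and TMEM97, a sterol-responsive membrane protein gene (13.5 FPKM in DOX(-), against 18.1 FPKM in DOX(+), log2 ratio -0.40). In the list of sterol uptake, transport and esterification 1 of 12 passed, GRAMD1A, of a protein that moves cholesterol from the plasma membrane to the endoplasmic reticulum, at 7.90 FPKM in DOX(-), against 4.63 FPKM in DOX(+) (0.66, counting interval 1.09 to 2.72). OSBP, an oxysterol-binding protein gene, was at 33.2 FPKM in DOX(-), against 28.4 FPKM in DOX(+). Of 6 tested genes of LXR and sterol efflux 0 passed, with NR1H2, the LXR beta gene, at 4.38 FPKM in DOX(-), against 3.13 FPKM in DOX(+), and MYLIP, an LXR target, at 8.97 FPKM in DOX(-), against 7.53 FPKM in DOX(+). The efflux pump gene ABCA1, an LXR target, was listed at 0 in both libraries.

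Among 9 tested suppliers of acetyl-CoA and NADPH, ACSS2, which makes cytosolic acetyl-CoA from acetate, had the largest difference. It stood at 9.55 FPKM in DOX(-), against 4.56 FPKM in DOX(+), a log2 ratio of 0.93 and a plain ratio of 2.096 (counting interval 1.22 to 3.52). The list median was 0.12. Elongation, desaturation and activation of fatty acids had a median of -0.04 over 18 genes, with 2 that were 1.5-fold lower in DOX(-). The first was HSD17B12, an elongation reductase gene (0.886 FPKM in DOX(-), against 2.14 FPKM in DOX(+)). Its counting interval was 0.134 to 1.13 on the shortest transcript, which includes equal levels, and 0.305 to 0.556 on the longest. The other was ACSL4, of an acyl-CoA synthetase that prefers arachidonate (6.96 FPKM in DOX(-), against 11.7 FPKM in DOX(+), counting interval 0.407 to 0.870). The exons of both overlap another gene model on their own strand. The desaturase genes FADS1 and FADS2 were at log2 ratios of 0.12 and 0.07.

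Fatty acid oxidation, the opposite route, had a median of -0.06 over 17 genes, with 0 at least 1.5-fold higher and 2 lower. SLC25A20, of the mitochondrial carnitine carrier, was at 3.20 FPKM in DOX(-), against 9.45 FPKM in DOX(+), a log2 ratio of -1.31 and a plain ratio of 0.339 (counting interval 0.230 to 0.497). ACAA2, of the last thiolase step, was at 8.60 FPKM in DOX(-), against 14.8 FPKM in DOX(+) (-0.72), and shares an exon on the same strand with AC090227.1. Of 6 tested genes of mitochondrial fatty acid synthesis 0 passed, with OXSM at 2.20 FPKM in DOX(-), against 1.66 FPKM in DOX(+) and MECR at 2.96 FPKM in DOX(-), against 2.41 FPKM in DOX(+). Likewise 0 of 16 genes of phospholipid and triglyceride synthesis passed (median 0.03), among them GPAM, of the acyltransferase that opens glycerolipid synthesis (2.79 FPKM in DOX(-), against 3.77 FPKM in DOX(+)), and SPTLC1 (12.4 FPKM in DOX(-), against 14.8 FPKM in DOX(+)).

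**Figure D3:**
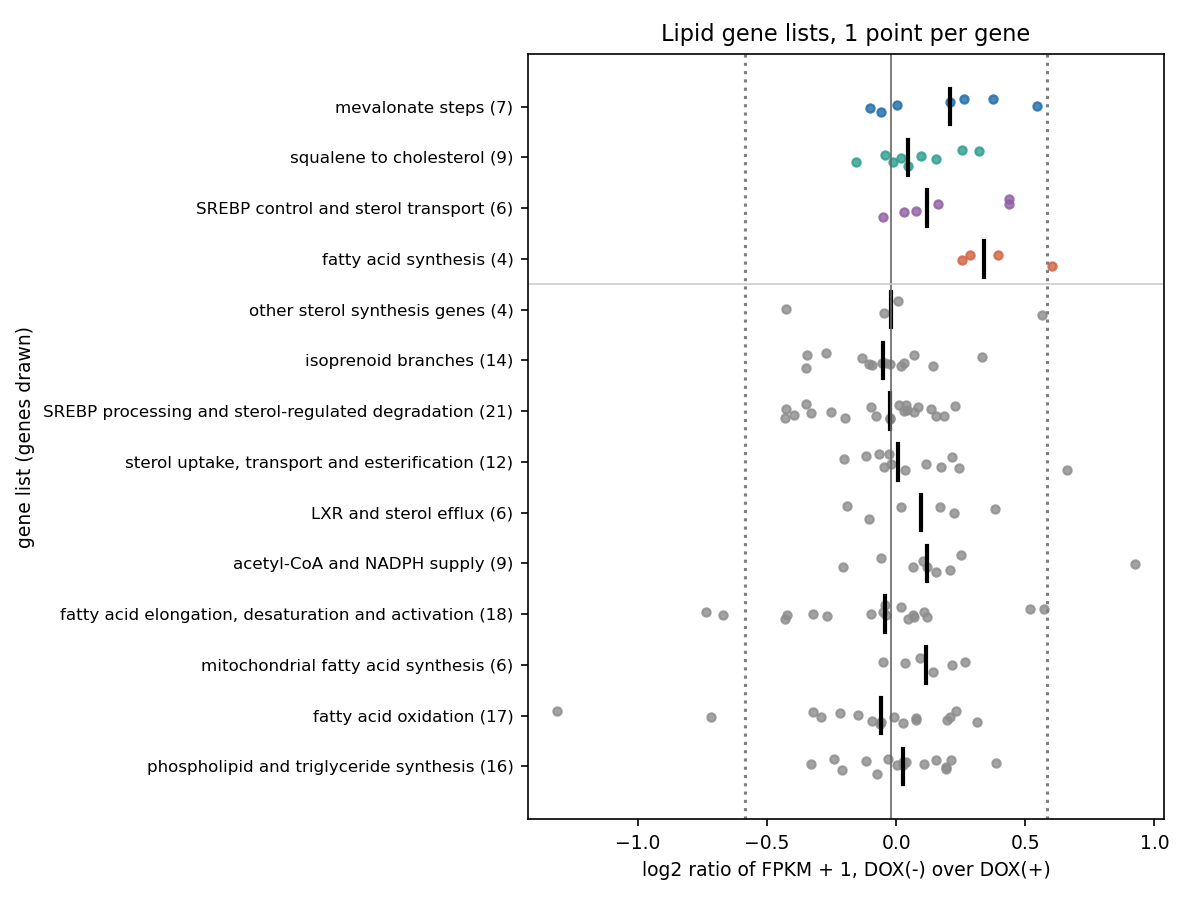
Log2 ratios of FPKM + 1, DOX(-) over DOX(+), with 1 point per tested gene, the members by role in colour above the grey line and the 10 other lipid lists in grey below it. Black bars are list medians, the thin line is the median of all tested genes at -0.02 and dotted lines mark 1.5-fold. All 4 fatty acid genes lie right of 0, and SLC25A20, at -1.31, and ACSS2, at 0.93, lie furthest out.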

How the data were processed

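RNA-seq of 2 libraries was analysed, 1 per condition. Per the file headers, the authors deposited FPKM values. Per the submitters' processing notes, the tools included HISAT2 2.1.0, StringTie 1.3.4b and CASAVA 1.8 on build GRCh38, in roles not stated. The annotation release and the use of strand are not given in the sources used here. FPKM hides depth, and StringTie-like division of reads between transcripts and overlapping models can move single values.

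From these values log2 ratios with a pseudocount of 1 FPKM were computed for genes of 1 FPKM or more in either library. Of the identifiers, 58039 of 58302 were found in GENCODE release 29, which is on GRCh38, 56647 at the same locus, and lengths and exon overlaps came from there. Where a gene has 1 annotated transcript, its FPKM is a whole multiple of the worth of 1 fragment. This gave the library totals, at which 99.98% of 5561 values up to 100 fragments in DOX(-) and 99.97% of 5949 in DOX(+) were whole within 0.02 fragment. At these totals 3 fragments on 1 kb equal 0.181 FPKM in DOX(-) and 0.162 FPKM in DOX(+). Intervals and floors take in counting error alone: no molecular identifiers were counted, and PCR copies are not independent. No p-value was made. The members and lists were chosen with earlier results of these data known. All members were named, with EIF2S3 and, from each other lipid list, the 2 genes of 2 FPKM or more with the largest difference and any past 1.5-fold, apart from genes that are not reported here; ABCA1, FADS1, FADS2, overlap partners and pseudogenes were named after their values were seen. Python 3.11.15, pandas 2.3.3 and scipy 1.17.1 were used.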

Additional observations from a re-analysis of the deposited data

How the results depend on the processing

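The medians of the 3 groups and of all members kept their sign under every filter and scaling tried and as means. A pseudocount cannot turn the sign of a gene's ratio, and all members are protein-coding. The alternatives of pseudocount and gene type therefore say little about these signs. All fatty acid genes passed the filter of 5 FPKM, so their median could not change there. The sterol median was smallest, at 0.004, with equal sums without mitochondrial genes. There 8 sterol genes lay above 0 and 8 below, against 11 and 5 as reported, so its sign says little. The median of the fatty acid genes ranged from 0.28 under that scaling to 0.38 as a mean. The count of members past 1.5-fold was 1; it was 2 (with INSIG2) at a pseudocount of 0.1 FPKM, 0 at a pseudocount of 5 FPKM and 0 with equal sums without mitochondrial genes, and 7 past a lower rule of 0.32 on the log2 scale and 0 past 2-fold. Over all tested genes the count of 826 became 1511 and 193 at those pseudocounts, 366 at a filter of 5 FPKM, 496 in protein-coding genes, 2640 past the lower rule and 234 past 2-fold. In the other lipid lists (alternatives chosen after seeing the data) the count of 6 became 11 and 2 at those pseudocounts, 23 past the lower rule and 1 past 2-fold. Counting intervals excluded equal levels for 6 members on the shortest transcripts and 13 on the longest, which hold more fragments by construction. Of 130 recomputed member values 3, all of SCD, moved beyond the counting interval on the shortest transcript, which is the widest. A called direction could turn only for FASN, the 1 member past 1.5-fold, and it did not. Signs turned for IDI1, MSMO1, DHCR7 and SCAP with equal sums without mitochondrial genes, and for SQLE under trimmed-mean and median-of-ratios scaling. The cause of the other changes was not tested. Depth limits MVK, SC5D, STARD4, SREBF1 and INSIG2 most. No paired analysis was possible because each condition has 1 library.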
